A study of Mus musculus with 24 samples.

Results

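Zfp genes are mouse genes named for the zinc fingers of the proteins they encode. The genes described here are those whose symbol is Zfp followed by a number, that lie on an autosome other than chromosomes 4, 10 and 11, and that had at least 100 allele counts pooled over the libraries of the 2 B-lineage clones. Of 37315 genes in the tables, 368 had such a symbol, 309 of these lay on the chromosomes allowed, and 232 met the count threshold. Another 52 Zfp genes lay on chromosomes 4, 10 or 11 and 7 on chromosome X, and of the 309 genes on allowed chromosomes 36 had no count and 41 had fewer than 100. The genes were thus chosen by the pooled counts of both alleles in the clones, and this sum is no finding. Just inside the threshold were Zfp850 with 117 counts and Zfp580 with 120, and just outside were Zfp346 with 95 and Zfp455 with 93.

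The study sequenced RNA of mice from a cross of the inbred strains 129S1/SvImJ and CAST/EiJ, whose sequence differences let reads be assigned to a parental allele. Abl.1 and Abl.2 are female B-lineage lines immortalised with the Abelson virus, each grown from 1 founder cell, labelled as untreated control, and prepared with the SMARTseq kit from 10 ng of RNA in 2 libraries each. Kidney RNA came from 1 adult female of the same cross and was prepared in 6 libraries with the same kit and input, and again in 6 libraries each with the NEBNext kit from 100 ng and with SMARTseq from 100 pg. Libraries of a group share their RNA source and each clone is 1 line, so the p-values say nothing of other clones or mice. The p-values given for allele shares use counts pooled over libraries and 1 correction for spread per group. They do not use each gene's own spread between libraries, whereas those for total level do.

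Most Zfp genes encode proteins with rows of C2H2 fingers, in which a pair of cysteines and a pair of histidines hold a zinc ion and each finger contacts a few bases of DNA. Many of them also carry a KRAB domain, which recruits the corepressor Trim28 and the histone methyltransferase Setdb1 to silence chromatin, often at transposable elements. Genes of this family arose by repeated duplication and lie in clusters, in particular on mouse chromosomes 7, 13 and 17. In a diploid cell a gene can be read from both parental alleles or from 1 of them. A clonal line keeps the choice its founder cell made where that choice is stably inherited, whereas a tissue averages over many cells.

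A coding sequence was found in the annotation for 231 of the 232 genes, and 221 of them (95.7%) held at least 1 C2H2 motif, with a median of 10 and a maximum of 33 per gene, against 3.30% of 22365 genes with a coding sequence. The label therefore fitted most of the genes. The 10 without this motif were Zfp36, Zfp330, Zfp395, Zfp414, Zfp608, Zfp609, Zfp703, Zfp704, Zfp839 and Zfp935. Zfp36, the mRNA-binding protein tristetraprolin, has 2 fingers of the CCCH type, with 3 cysteines and 1 histidine. For 4 genes on which the allele results turn, the DNA of 1 finger is shown, with the codons of the zinc-holding cysteines and histidines in capitals. Zfp27 is read from opposite alleles in the 2 clones, Zfp36 differs in allele and in total level, Zfp110 is read from the same allele in both, and Zfp623 is read from 1 allele in Abl.2 and from both in Abl.1.
Zfp27 C2H2: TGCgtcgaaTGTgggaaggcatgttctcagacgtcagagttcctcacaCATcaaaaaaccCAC
Zfp36 CCCH: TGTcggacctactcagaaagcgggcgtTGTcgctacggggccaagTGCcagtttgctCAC
Zfp110 C2H2: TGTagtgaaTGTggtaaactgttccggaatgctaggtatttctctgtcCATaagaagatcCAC
Zfp623 C2H2: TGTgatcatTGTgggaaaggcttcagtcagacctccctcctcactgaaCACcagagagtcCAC
On GRCm38 these lie in the last coding exon of each gene, at chr7:29895858-29895920 (minus strand, exon 5 of 5) for Zfp27, chr7:28378158-28378217 (minus, exon 2 of 2) for Zfp36, chr7:12849494-12849556 (plus, exon 8 of 8) for Zfp110 and chr15:75947557-75947619 (plus, exon 2 of 2) for Zfp623. Sequence is of the reference strain and does not show the differences between 129S1/SvImJ and CAST/EiJ. The 3 C2H2 fingers share the spacing of their capitals, whereas the CCCH finger of Zfp36 has its own.

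Allelic imbalance (AI) is the share of a gene's allele counts that fall in the column named maternal in the tables, so 0.5 means equal use of both alleles. In kidney, 6 of 7 genes known to be expressed from the paternal allele had an AI above 0.5 and 4 of 4 maternally expressed genes had an AI below 0.5, opposite to the column names. The imprinted gene Impact had an AI of 0.984 in kidney but 0.0590 in Abl.1 and 0 in Abl.2, whereas the non-imprinted Cbx3 was alike at 0.174, 0.151 and 0.173. Alleles are therefore named here by column, and which parent a column stands for was not settled. Allele counts per library were 19213150 to 22241719 in the clones and 6360257 to 6397679 in the 10 ng kidney libraries. The quality correction constant (QCC), by which the spread of AI between libraries exceeds counting error, was 2.51 in Abl.1, 2.17 in Abl.2 and 1.47 in kidney. All 12 B-lineage markers were detected in the clones, with a summed level of 10196 to 10900 CPM (counts of both alleles scaled to a common library total) in Abl.1 and 11324 to 11381 in Abl.2, against 42.1 to 58.3 in kidney. Macrophage markers summed to 29.3 to 58.5 CPM in Abl.1 and 0.234 to 0.406 in Abl.2, with 1551 counts of Csf1r and 0 of Adgre1 in Abl.1. Kidney markers summed to 13.4 to 15.9 CPM in Abl.2 and 0.360 to 0.937 in Abl.1. In Abl.2 Umod had 374 counts, Slc34a1 150 and Cubn 94, whereas Lrp2, Slc12a1, Aqp2, Nphs1 and Kap had 0. T cell markers summed to 2.55 to 2.65 CPM in Abl.1 and 0.0468 to 0.632 in Abl.2, with 85 and 0 counts of Cd3e. The source of these marker counts and their part in the results were not tested.

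A gene was called biased when its AI differed from 0.5 by the proportional test on counts divided by the square of QCC, at a Bonferroni threshold of 0.05 over all genes with at least 10 counts in each library. Adjusted p-values given for AI are from this test or its two-sample form. By it, 29 of 225 Zfp genes tested were biased in Abl.1 (12.9%), 44 of 225 in Abl.2 (19.6%) and 18 of 170 in kidney (10.6%). Over all genes on the same chromosomes that met the same count threshold, the shares were 21.2% in Abl.1, 24.0% in Abl.2 and 21.7% in kidney. The Zfp genes had fewer counts than most, with a pooled median of 1162.5 and a range of 117 to 25294, and their share of calls lay below the background in all 3. With 1 library alone the count fell to 16 or 15 in Abl.1 (without library 1 or 2) and to 33 or 27 in Abl.2. In Abl.2, 32 of the 44 leaned to the maternal column (14.2% of those tested, background 12%) and 12 to the paternal column (5.33%, background 12%). In Abl.1 the split was 14 to 15. The median AI of the Zfp genes was 0.489 in Abl.1, 0.506 in Abl.2 and 0.507 in kidney. Their median distance from 0.5 was 0.0857, 0.0692 and 0.0487, against 0.0672, 0.0587 and 0.0447 over all genes.

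**Figure D1:**
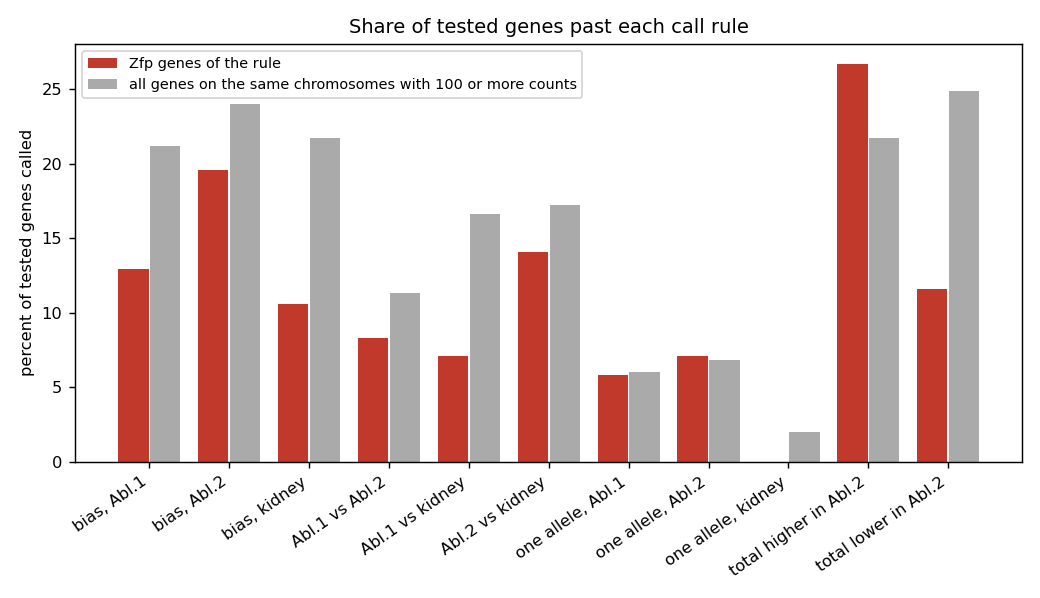
Percent of tested genes past each call rule (vertical axis) for the Zfp genes (red bars) and for all genes on the same chromosomes with the same count threshold (grey bars). The red bar is below the grey one for bias in Abl.1 (12.9% against 21.2%), Abl.2 (19.6% against 24.0%) and kidney (10.6% against 21.7%), and near it for one-allele use in the clones.

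A clone was said to use 1 allele of a gene when the gene was called biased and its AI was at most 0.1 or at least 0.9. Abl.1 used 1 allele of 13 of 225 Zfp genes (5.78%, background 5.98%) and Abl.2 of 16 of 225 (7.11%, background 6.82%). Of the 218 Zfp genes tested in both clones, 21 were on 1 allele in either (9.63%, background 8.01%), 3 in both and on the same allele (1.38%, background 2.20%), and 1 in both on opposite alleles (0.459%, background 0.106%). These shares are near the background. No Zfp gene was on 1 allele in kidney, where the same rule had the counts it needs in all 170 genes tested (background 2.00%). With the genes tested in only 1 clone included, 25 Zfp genes used 1 allele somewhere, 4 in both clones and 21 in 1 clone only. For those 21, the other clone was not called biased in 13, was biased with both alleles read in 4 and was not tested in 4. In Abl.1, 6 genes used the maternal and 7 the paternal column, and in Abl.2 the numbers were 11 and 5.

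The count of one-allele genes depended on depth. A gene read only from 1 allele needed 133 counts in Abl.1 to be called, which 187 of the 225 genes had, 99 in Abl.2, which 214 had, and 46 in kidney. Another 11 genes in Abl.1 and 10 in Abl.2 passed the AI limits without the call, with at most 127 and 113 counts. In Abl.1 the count fell from 13 to 7 without library 1 and to 8 without library 2, each fit having fewer counts, and in Abl.2 it was 15 or 14. Of genes with at least 300 and fewer than 1000 counts pooled over both clones, 7 of 76 Zfp genes used 1 allele in Abl.1 (9.21%, all genes 11.3%) and 7 of 71 in Abl.2 (9.86%, all genes 12.6%). From 1000 to below 3000 counts it was 4 of 75 in Abl.1 (5.33%, all genes 6.91%). In Abl.2 it was 8 of 75, above all genes (10.7%, all genes 8.15%). From 100 to below 300 it was 2 of 24 in Abl.1 (8.33%, all genes 8.76%) and 1 of 29 in Abl.2 (3.45%, all genes 9.91%). With 3000 pooled counts or more, 0 of 50 did so in either clone (all genes 3.03% and 3.47%).

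**Figure D2:**
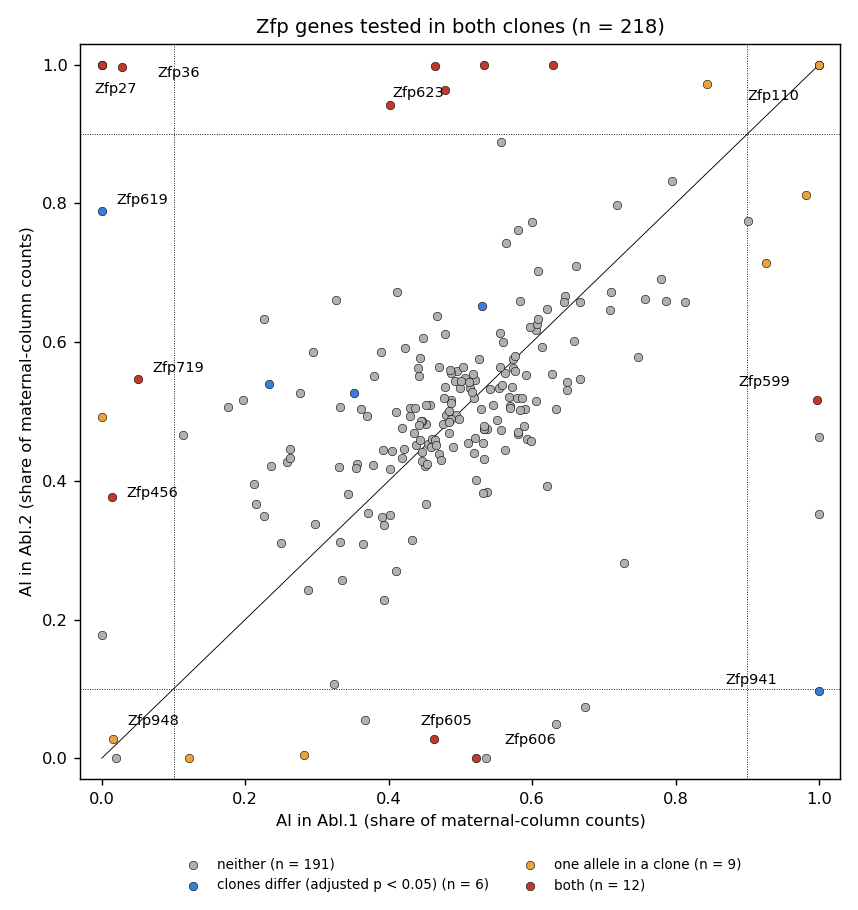
AI of each Zfp gene tested in both clones, in Abl.1 (horizontal axis) and Abl.2 (vertical axis), both as the share of maternal-column counts, with point colours for genes that were called different between the clones, on 1 allele in a clone, both or neither. Most of the 218 genes lie near 0.5 in both clones, Zfp110 and Zfp677 lie in the upper right corner, Zfp948 in the lower left, and Zfp27 in the upper left.

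Zfp27 was read from opposite alleles in the clones. Its AI was 0 in both Abl.1 libraries (128 and 135 counts) and 1 in both Abl.2 libraries (181 and 118 counts). In kidney the 6 libraries ran from 0.196 through a median of 0.297 to 0.414, so each clone lay outside the kidney range on its own side. The gene was chosen for its AI in the clones, and the share of such genes over all genes was not computed. The difference of 1 between the clones was called (adjusted p = 9.6e-21, proportional test, Bonferroni). The total level was 6.66 and 6.07 CPM in Abl.1 and 8.47 and 5.32 CPM in Abl.2. The log2 difference of Abl.2 to Abl.1 was -0.24 (SE 0.36, edgeR adjusted p = 0.611). It was taken after a further scaling between libraries (TMM) that CPM leaves out, so the signs can differ. Zfp27 (ENSMUSG00000062040) spans chr7:29893333-29906572 within a cluster of 13 Zfp genes, and the median AI of the other genes near it was 0.528 in Abl.1 and 0.508 in Abl.2.

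Zfp36, Zfp939 and Zfp941 also had AI values at opposite ends. Tristetraprolin, the Zfp36 product, binds AU-rich elements of cytokine mRNAs and speeds their decay. Zfp36 (ENSMUSG00000044786, chr7:28376784-28380253) had an AI of 0 and 0.0484 in Abl.1 (45 and 62 counts) and 0.996 and 0.997 in Abl.2 (1091 and 1036 counts), while the kidney libraries ran from 0.478 to 0.590. The clones differed by 0.969 (adjusted p = 8.86e-89). With 107 counts in all, Abl.1 was below the 133 needed for a call of bias, and its 95% Wilson interval on corrected counts was 0.00282 to 0.227.

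Zfp939 (ENSMUSG00000030424, chr7:39449518-39477413) had an AI of 0 in both Abl.1 libraries (28 and 33 counts) and 1 in both Abl.2 libraries (46 and 33 counts). Its clone difference was called (adjusted p = 0.00262), though neither clone was called biased alone. In Zfp941 (ENSMUSG00000060314, chr7:140807449-140822178) the direction was the reverse, with 1 in both Abl.1 libraries (33 and 54 counts) and 0.175 and 0.0179 in Abl.2 (57 and 56 counts). The difference of -0.903 was called (adjusted p = 0.000642), and the kidney AI was 0.765 over 217 counts. Counted after these values were seen, 4 of 218 Zfp genes lay at opposite ends with the clone difference called (1.83%, background 0.252%). All 4 are on chromosome 7, so without chromosomes 5, 7 and 18 the count was 0. Around Zfp939 the other genes were themselves shifted in Abl.1, with a median AI of 0.192, whereas around Zfp36 and Zfp941 it was 0.524 and 0.517.

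Zfp110, Zfp677 and Zfp948 used the same allele in both clones. Zfp110 encodes a neurotrophin receptor interacting factor. The gene (ENSMUSG00000058638, chr7:12834761-12850577) had an AI of 1 in both Abl.1 libraries (212 and 312 counts) and 0.999 in both Abl.2 libraries (840 and 1194 counts), against 0.424 to 0.65 in kidney. Zfp677 (ENSMUSG00000062743, chr17:21383748-21399265) was at 1 in all 4 clone libraries, on 58 to 205 counts each. Its kidney AI was 0.672 on 67 counts, and no test was made there. Zfp948 (ENSMUSG00000067931, chr17:21567008-21588699) used the other allele, with 0.0129 and 0.0217 in Abl.1 (232 and 138 counts), 0 and 0.0565 in Abl.2 (228 and 230 counts), and 0.397 to 0.586 in kidney. The kidney libraries of Zfp110 and Zfp948 thus did not overlap with those of either clone. Both genes were chosen for an AI at an end of the scale, however, and the share over all genes was not computed. Zfp580 pointed the same way as Zfp948 in both clones, with 0.0204 of 49 counts and 0 of 71 counts, but its counts were too few for a call.

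**Figure D3:**
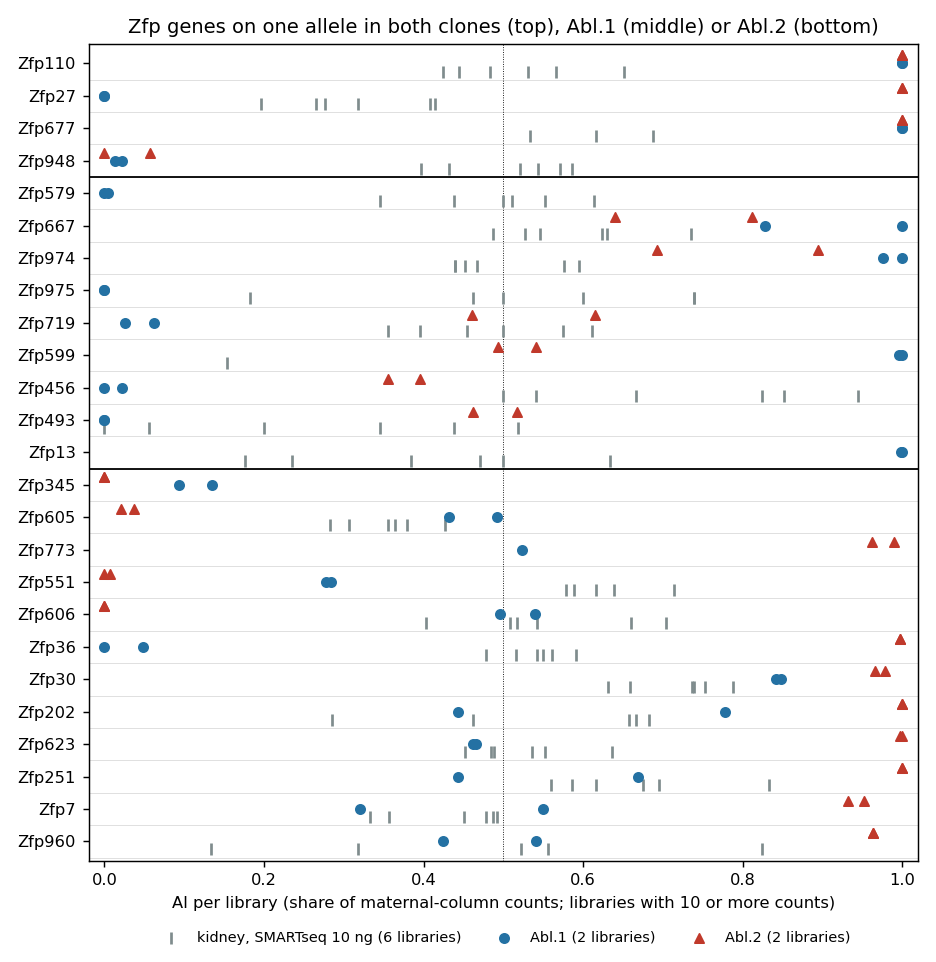
AI in each library (horizontal axis, share of maternal-column counts) for the 25 Zfp genes on 1 allele in both clones, in Abl.1 or in Abl.2 (blocks from top to bottom), with circles for Abl.1, triangles for Abl.2 and ticks for kidney. The 2 libraries of a clone lie on the same side of the middle for each gene of its block. Kidney ticks spread around the middle for several genes and stay to 1 side of it for others. The latter include Zfp27 (0.196 to 0.414), Zfp605 (0.282 to 0.427) and Zfp30 (0.630 to 0.788).

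Another 9 Zfp genes used 1 allele in Abl.1 only. Zfp719 (ENSMUSG00000030469, chr7:43579610-43593235) had an AI of 0.0251 and 0.0622 in Abl.1 (199 and 434 counts), 0.460 and 0.615 in Abl.2 (439 and 561 counts) and 0.355 to 0.611 in kidney. The other genes near it had a median AI of 0.167 in Abl.1, so a shift of the whole region accompanied its value there. Zfp456 (ENSMUSG00000078995, chr13:67362113-67375810) was at 0.0219 and 0 in Abl.1 (320 and 189 counts) and 0.355 and 0.395 in Abl.2 (747 and 949 counts), with neighbours at 0.558 in Abl.1. Zfp599 (ENSMUSG00000062794, chr9:22247430-22259895) used the other allele, at 0.995 and 1 in Abl.1 (208 and 239 counts), against 0.493 and 0.540 in Abl.2 (304 and 285 counts). The clone difference was called for these 3 (adjusted p = 3.82e-13, 1.74e-06 and 2.36e-08).

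Zfp493, at 0 in both Abl.1 libraries (122 and 39 counts) and 0.462 and 0.517 in Abl.2, did not pass for the difference (adjusted p = 0.0606). Zfp974 (0.982 in Abl.1 and 0.812 in Abl.2) and Zfp667 (0.926 and 0.714) leaned to the maternal column in both clones, and no difference was called (adjusted p = 1 for both). In Zfp974 only 32 counts stood behind the Abl.2 value. For the 3 others Abl.2 gave no AI to compare. Zfp13 (ENSMUSG00000062012, chr17:23575844-23599487) was at 1 and 0.998 in Abl.1 (304 and 517 counts) and Zfp975 at 0 in both (89 and 83 counts), and neither had a count in Abl.2. Zfp579 was at 0.00483 and 0 in Abl.1 (207 and 123 counts) and had 4 counts in Abl.2. Kidney AI of the same genes was 0.427, 0.543 and 0.479.

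Another 12 Zfp genes used 1 allele in Abl.2 only. Zfp36, described above, is one of them by the call, though its AI in Abl.1 was past the other limit. Zfp623 (ENSMUSG00000050846, chr15:75940952-75949400) was at 0.997 and 1 in Abl.2 (385 and 399 counts), 0.462 and 0.466 in Abl.1 (212 and 384 counts) and 0.452 to 0.636 in kidney (difference 0.534, adjusted p = 9.68e-22). Zfp251 and Zfp7 lie next to each other on chromosome 15 and used the same allele. Zfp251 (ENSMUSG00000022526, chr15:76851609-76871435) was at 1 in both Abl.2 libraries (313 and 204 counts) and 0.669 and 0.444 in Abl.1. Zfp7 (ENSMUSG00000033669, chr15:76879259-76892395) was at 0.951 and 0.932 in Abl.2 (144 and 117 counts) and 0.550 and 0.320 in Abl.1. The third gene of their cluster was at 0.516 in Abl.2, and other genes near them had a median of 0.508.

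Zfp606 (ENSMUSG00000030386, chr7:12478293-12496235) was read from the paternal column alone in Abl.2, with an AI of 0 in both libraries (210 and 315 counts), and from both alleles in Abl.1 at 0.495 and 0.539 (404 and 597 counts). Its neighbour Zfp551, in the same cluster, was at 0.00658 and 0 in Abl.2 (152 and 101 counts) and 0.284 and 0.277 in Abl.1. The difference was called for Zfp606 (adjusted p = 4.74e-16) and not for Zfp551 (adjusted p = 0.618). Both lie near Zfp110, which used the other allele in the same clone. Zfp605 (ENSMUSG00000023284, chr5:110110092-110129794) was at 0.0367 and 0.0202 in Abl.2 (627 and 843 counts) and 0.432 and 0.492 in Abl.1, and kidney, at 0.346, was called biased to the same side.

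On the maternal side, Zfp960 (ENSMUSG00000096696, chr17:17064113-17089628) was at 0.964 and 0.963 in Abl.2 (302 and 356 counts) and 0.424 and 0.541 in Abl.1. Zfp202 was at 1 in both Abl.2 libraries (281 and 367 counts) and 0.443 and 0.778 in Abl.1, with neighbours at 0.654 in Abl.1 and 0.646 in Abl.2. Zfp345, Zfp30 and Zfp773 were past the limits in Abl.2 as well. In Zfp345 (0 in Abl.2, 0.121 in Abl.1) and Zfp30 (0.972 and 0.844) Abl.1 was biased to the same side, and the clones were not called different (adjusted p = 1 for both). Kidney AI of Zfp30 was 0.722, called and on that side too. Zfp773 had 146 counts in Abl.2 (AI 0.979) and too few in Abl.1 for the test.

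The test of the difference itself called 18 of the 218 Zfp genes tested between the clones (8.26%, background 11.3%). AI was higher in Abl.2 in 14 (6.42%, background 6.80%) and lower in 4 (1.83%, background 4.51%). The 18 included 12 of the 25 one-allele genes, and Zfp939, Zfp941, Zfp619, Zfp775, Zfp157 and Zfp296 besides. Zfp619 had an AI of 0 in both Abl.1 libraries (39 and 58 counts) and 0.906 and 0.723 in Abl.2 (53 and 94 counts), and lies in the shifted region of chromosome 7 near Zfp939, with neighbours at 0.194 in Abl.1. Smaller differences were called at high counts. Zfp775 was at 0.511 and 0.542 in Abl.1 and 0.658 and 0.648 in Abl.2, Zfp157 at 0.362 and 0.342 against 0.483 and 0.559, and Zfp296 at 0.226 and 0.238 against 0.532 and 0.548. In none of these 3 did the libraries of the clones overlap, but they were chosen by the call, and the share over all genes was not computed. The median size of the AI difference was 0.0650 over the Zfp genes and 0.0517 over all genes tested.

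Some of the differences stood in regions where other genes were shifted too. For 19 Zfp genes the median AI of other genes within 2 Mb was at least 0.1 away from 0.5 in a clone, and in Abl.1 most of these lay on chromosome 7. Of those 19, 18 were tested and 5 were called different between the clones, against 13 of 200 elsewhere. The share over all genes tested was 11.3%, and it was not split by region. The 5 were Zfp719, Zfp619, Zfp939, Zfp202 and Zfp606. Around Zfp719, Zfp619 and Zfp939 the median of other genes was 0.167 to 0.194 in Abl.1 and 0.511 to 0.538 in Abl.2. For Zfp202 the other genes were shifted alike in both clones, at 0.654 in Abl.1 and 0.646 in Abl.2. Near Zfp606 they were at 0.390 in Abl.1 and 0.475 in Abl.2, whereas Zfp606 itself was at 0.521 and 0. The shift near Zfp606 was thus not in the clone where this gene lay at an end of the scale. Without chromosomes 5, 7 and 18, 8 of 135 Zfp genes were called (5.93%, all genes 9.98%). What part the shifted regions had in the calls was not tested.

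In kidney, 18 of 170 Zfp genes were biased, 11 to the maternal and 7 to the paternal column. Farthest from 0.5 were Zfp945 at 0.817 (library range 0.764 to 0.860) and Zfp445 at 0.187 (0.0769 to 0.286). Zfp445 helps to keep imprints, and its median over the libraries was 0.205. Next came Zfp941 at 0.765 (library median 0.775), Zfp329 at 0.736 (0.706 to 0.759) and Zfp661 at 0.728 (0.5 to 0.921). The libraries of Zfp661 thus reached 0.5, whereas those of the other 4 did not. Adjusted p by the proportional test was 2.68e-11 for Zfp445 and 0.00953 for Zfp661. The most deeply counted of the 18, Zfp560, had a narrow range of 0.566 to 0.597 over 4801 counts.

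The other kidney experiments kept the direction for most of these genes but called few of them. AI lay on the same side of 0.5 in 16 of the 18 with NEBNext at 100 ng and in 17 with SMARTseq at 100 pg, and 4 of the 18 were called in each. The median distance from 0.5 was 0.182 with SMARTseq at 10 ng, which chose the 18, 0.110 with NEBNext and 0.158 at 100 pg. The 2 that crossed over with NEBNext were Zfp945 at 0.457 and Zfp661 at 0.480. Zfp445 was at 0.379 and 0.164 in the other experiments, and Zfp329 at 0.634 and 0.709.

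Each clone was also compared with the 10 ng kidney libraries, which both comparisons share. Abl.1 differed from kidney in 12 of 169 Zfp genes (7.10%, background 16.6%) and Abl.2 in 23 of 163 (14.1%, background 17.2%). Without library 1 of Abl.1 the first count was 7. Several of the 12 and 23 are one-allele genes described above, among them Zfp110, Zfp948 and Zfp456, which are on both lists. Zfp61 and Zfp94, neighbours on chromosome 7, differed from kidney in another way. AI of Zfp61 was 0.645 in Abl.1 and 0.657 in Abl.2 against 0.324 in kidney, where the 6 libraries ran from 0.258 to 0.381. Zfp94 was at 0.710 and 0.672 against 0.384 (0.186 to 0.526). Both clones thus favoured 1 column and kidney the other for Zfp61, which was called biased in all 3. No kidney library overlapped with a clone library for either gene, and the share of such genes over all genes was not computed. With NEBNext, however, kidney was at 0.498 for Zfp61. Kidney holds many cell types, and in bulk RNA fewer cells of a type and less RNA per cell cannot be told apart.

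By position, 193 Zfp genes fell into 28 clusters, defined as at least 3 Zfp genes with gaps of at most 500 kb, and 150 of the 232 genes lay in one. One-allele use in either clone was found for 22 of the 150 (14.7%) and for 3 of the 82 outside clusters (3.66%), namely Zfp605, Zfp202 and Zfp960. With gaps of at most 250 kb the numbers were 17 of 131 and 8 of 101, and with 1000 kb 22 of 156 and 3 of 76. Differences between the clones were called for 11 of 139 within clusters (7.91%) and 7 of 79 outside (8.86%). With gaps of at most 250 kb this became 6 of 122 (4.92%) and 12 of 96 (12.5%), and with 1000 kb 11 of 144 (7.64%) and 7 of 74 (9.46%). These shares are a description, since clustered genes share regions. The one-allele shares here are over all Zfp genes, tested or not. Of all genes tested in both clones, 8.01% were on 1 allele in either. No share over all genes was computed by cluster or by chromosome. By chromosome, 12 of the 25 one-allele genes were on chromosome 7, which holds 71 of the 232, 4 of 38 on chromosome 17, 3 of 9 on chromosome 15, 2 of 22 on chromosome 13, 2 of 14 on chromosome 9, and 1 each on chromosomes 2 and 5.

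Within a cluster, genes on 1 allele stood among genes read from both. The largest cluster, chr17:21008903-23599487 with 22 genes, had a median AI of 0.483 in Abl.1 and 0.479 in Abl.2, and held Zfp677 and Zfp13 at the maternal end and Zfp948 at the paternal end. The median of other genes nearby was 0.502 and 0.489. The cluster at chr7:29768552-30169750 with 13 genes ran from 0 for Zfp27 to 0.844 for Zfp30 in Abl.1, with a median of 0.557, while genes of other kinds nearby were at 0.528. On chromosome 13, at chr13:66669928-67827002, 12 genes had a median of 0.383 in Abl.1, where Zfp456 and Zfp493 used the paternal column, and 0.489 in Abl.2, where none was on 1 allele. The cluster at chr7:12415153-12985714 with 7 genes held alleles of both columns in the same clone, with Zfp606 and Zfp551 at the paternal and Zfp110 at the maternal end in Abl.2.

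The cluster at chr7:42473386-43618285 differed from these. Its other genes had a median AI of 0.202 in Abl.1 and 0.513 in Abl.2, and the median of its 5 Zfp genes was 0.263 in Abl.1 and 0.5 in Abl.2. Even there the genes were not alike. Zfp715, at 0.415 and 0.488 in Abl.1 (472 and 572 counts), lay near 0.5 and was not called, while Zfp658 was at 0.251 and 0.269 (458 and 905 counts) and was called biased, and Zfp719 and Zfp975 were at the paternal end. Positions are those of the tables on GRCm38.

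**Figure D4:**
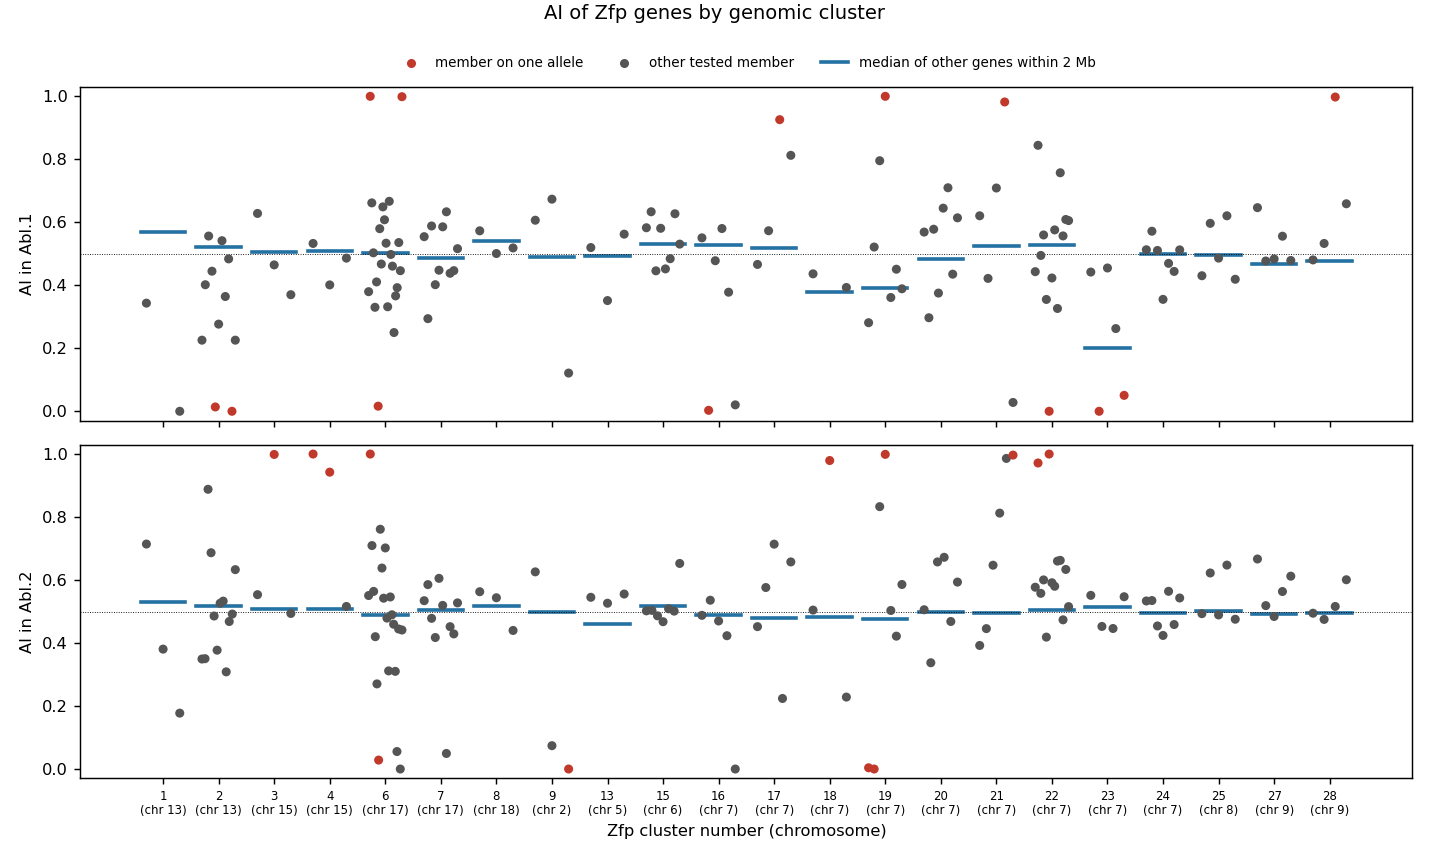
AI in Abl.1 (upper panel) and Abl.2 (lower panel) of tested Zfp genes in the 22 clusters with at least 3 of them, numbered along the horizontal axis with their chromosome. Red points are genes on 1 allele, grey points other genes, and blue lines the median of other genes within 2 Mb. Blue lines stay near 0.5 in most clusters, and in the cluster at chromosome 7 numbered 23 the line is at 0.202 in Abl.1.

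Total level was compared between the clones with edgeR on the sum of both alleles. Log2 differences and their p-values are after TMM scaling, whereas CPM is scaled to the library total alone, so the 2 need not match. Of 232 Zfp genes, 89 differed at a Benjamini-Hochberg adjusted p of 0.05 (38.4%, background 46.6%). Of these, 62 were higher in Abl.2 (26.7%, background 21.7%) and 27 lower (11.6%, background 24.9%). The median log2 difference over the Zfp genes was 0.42, against 0.00 over all genes tested. The count depended on single libraries, at 144 without library 2 of Abl.1 and 46 without library 2 of Abl.2, and more genes were higher than lower in Abl.2 in each of these fits.

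The largest differences were in genes with few or no allele counts in 1 clone. These genes met the count threshold through the other clone alone, so their differences are only described here. Zfp507 (ENSMUSG00000044452, chr7:35772343-35803003) had no count in Abl.1 and 1064 and 1088 counts in Abl.2, at least 683-fold higher if 3 counts over both libraries are taken as the floor, and it was read from both alleles there (AI 0.522). Zfp111 (ENSMUSG00000087598, chr7:24193947-24211443) had 445 and 631 counts in Abl.1 and none in Abl.2, at least 374-fold lower. Zfp13 was at least 283-fold lower in Abl.2, Zfp467 at least 122-fold and Zfp975 at least 60.7-fold. Zfp93, which neighbours Zfp111, had 461 counts in Abl.1 and 1 in Abl.2. Zfp579 had 330 counts in Abl.1 and 4 in Abl.2. In kidney all 7 were detected, with Zfp467 at 59.5 CPM. A second sequencing run of the Abl.2 libraries again gave 0 counts for Zfp13, Zfp467 and Zfp975. It gave 0 for Zfp93, 2 for Zfp111 and 17 for Zfp579.

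Among genes detected in both clones, Zfp36 rose most. It had 2.34 and 2.79 CPM in Abl.1 and 51.1 and 46.7 CPM in Abl.2, a log2 difference of 3.90 (SE 0.23, edgeR adjusted p = 0.000183), and nearly all of the added counts were of the maternal column. Zfp808 followed with 3.79, from 11 counts in Abl.1, so it met the count threshold through Abl.2 and is only described. Zfp318, which B cells need for splicing of IgD mRNA, had 2.13 and 3.91 CPM in Abl.1 and 30.6 and 29.8 CPM in Abl.2 (log2 difference 2.98, SE 0.32, adjusted p = 0.00121) and an AI near the middle in both, at 0.555 and 0.614. Zfp110, on 1 allele in both clones, was higher in Abl.2 as well, by 1.55 on the log2 scale (SE 0.24, adjusted p = 0.00454).

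For genes on 1 allele in a clone, the total there was set beside that in the other clone. There were 6 genes on 1 allele in Abl.1 that were tested in Abl.2 with an AI between 0.1 and 0.9. Of these, 2 were called lower in Abl.1 (all genes 21.7%) and 1 higher (all genes 24.9%). Their log2 difference of Abl.1 to Abl.2 had a median of -0.60 and ran from -1.58 to 2.89. Of 10 such genes on 1 allele in Abl.2, 2 were called lower in Abl.2 (all genes 24.9%) and 1 higher (all genes 21.7%). Their difference of Abl.2 to Abl.1 had a median of -0.09 and ran from -1.44 to 0.90. With so few genes, these counts cannot be told apart from the shares over all genes. Zfp36, with an AI near 0 in Abl.1, is not among the 10 genes. In Zfp623 the total was 11 and 17.3 CPM in Abl.1 and 18 in both Abl.2 libraries, so by CPM the level was not lower on 1 allele. In Zfp606 it was 21 and 26.8 CPM in Abl.1 and 9.83 and 14.2 CPM in Abl.2, a log2 difference of -1.34 (SE 0.27, edgeR adjusted p = 0.0104). Zfp599 was at 10.8 and 10.7 CPM on 1 allele in Abl.1 and 14.2 and 12.9 CPM on both in Abl.2. After TMM scaling no difference was called (edgeR adjusted p = 0.939).

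**Figure D5:**
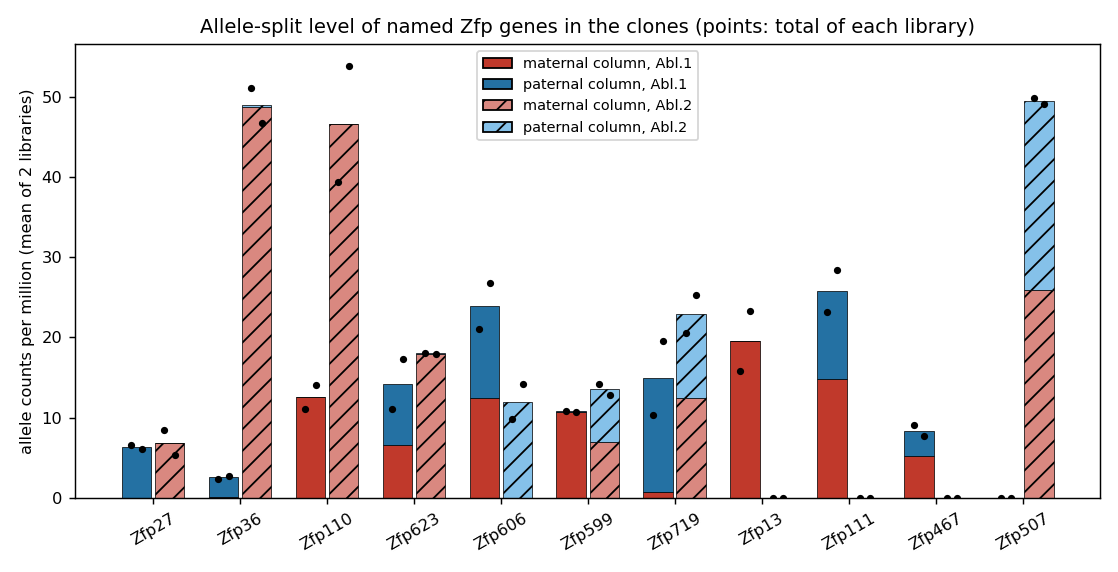
Mean CPM of 2 libraries (vertical axis) in Abl.1 (plain bars) and Abl.2 (hatched bars) for 11 Zfp genes, split into the maternal column (red) and the paternal column (blue), with points for the total of each library. Zfp27 changes colour between the clones at a like level, Zfp36 changes colour and rises, Zfp606 loses its maternal part in Abl.2, and Zfp13, Zfp111, Zfp467 and Zfp507 are at 0 in 1 clone.

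Zfp genes with a known role were taken from a list. Of 15 listed, 12 were tested in the clones, among them Zfp106, which was below the threshold of 100 counts. Bias was called for 0 of the 12 in Abl.1 (background 21.2%), 1 in Abl.2 (Zfp36, background 24.0%) and 3 of 10 in kidney (background 21.7%). A gene without a call is not thereby shown to use both alleles. Zfp106, with 44 counts in Abl.1 and 41 in Abl.2, had fewer than a call needs in either. Zfp42 and Zfp57 had no count in the clones. Zfp143 activates genes transcribed by RNA polymerases II and III, and its AI was 0.458 in Abl.1, 0.509 in Abl.2 and 0.521 in kidney. Zfp148, a factor that binds GC-rich promoters, was at 0.470, 0.438 and 0.470. Zfp281, a regulator of pluripotency, was at 0.576, 0.558 and 0.467. None of these 3 was called. Zfp568, a KRAB factor that represses placental Igf2 transcripts, lies in a cluster and was at 0.576, 0.580 and 0.639, without a call. Zfp91, an atypical E3 ubiquitin ligase, was called in kidney at 0.382, and its clone values of 0.419 and 0.433 were on the same side without a call. Zfp809, which silences retroviruses through their primer binding site, was at 0.602 in kidney, where it was called, and at 0.533 and 0.475 in the clones. Zfp445 was at 0.196 in Abl.1 and 0.516 in Abl.2, and with 158 counts in Abl.1 the difference was not called.

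The most deeply counted genes without any call of AI were Zfp706, Zfp330 and Zfp592. Zfp706 had 14705 counts in Abl.1 and 10589 in Abl.2, and its AI was 0.482 and 0.491 in the Abl.1 libraries and 0.511 and 0.514 in those of Abl.2. Its corrected 95% intervals were 0.466 to 0.507 and 0.492 to 0.533. Zfp330 was at 0.540 and 0.525 in Abl.1 and 0.455 and 0.454 in Abl.2, and the difference was not called (adjusted p = 0.302). Zfp592 was at 0.499 and 0.511 against 0.564 and 0.533, though the other genes around it were at 0.397 in Abl.1. In all, 165 of the 232 genes were tested and not called biased in either clone.

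The proteins that act with KRAB zinc fingers were listed apart, with 23 of 24 genes in the tables. Suv39h1 on X, Hdac1 on chromosome 4, Hdac2 on 10, and Cbx1 and Chd3 on 11 lie on chromosomes that the rule leaves out. The background leaves these chromosomes out too, so its shares are over unlike sets. Suv39h1 was called biased in both clones, at 0.00105 in Abl.1 and 0.00171 in Abl.2. Of 22 tested, 7 were biased in Abl.1 and 6 in Abl.2, and 2 of 17 in kidney, where the background was 21.2%, 24.0% and 21.7%. Between the clones 3 of 22 differed in AI (Hdac1, Hdac2 and Pphln1, background 11.3%), and 6 of 22 differed in total level (background 46.6%), 4 of them higher in Abl.2. The corepressor Trim28 had an AI of 0.488 in Abl.1, 0.489 in Abl.2 and 0.471 in kidney, with no call. Setdb1 was at 0.445, 0.448 and 0.453 without a call, and its total was not called different (log2 difference 0.48, edgeR adjusted p = 0.0688). The heterochromatin protein gene Cbx3 was biased alike in all 3, at 0.151, 0.173 and 0.174. Hdac1, a histone deacetylase on chromosome 4, was at 0.361 in Abl.1 and 0.999 in Abl.2.

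One-allele genes had somewhat more fingers than the others, and this difference was not tested. The 25 one-allele genes had a median of 12 C2H2 motifs and the others a median of 10, and 24 of 25 had at least 5 motifs against 166 of 206. Genes in clusters had a median of 12 and those outside a median of 7, so the position of a gene goes with both. Many clustered Zfp genes have near-identical copies. The authors kept only unique alignments and left out exon regions shared by genes, so counts of such genes rest on the parts that differ, and values of overlapping or antisense genes cannot be separated where reads carry no strand.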

How the data were processed

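The deposited tables hold whole-number allele counts per gene and library. The authors aligned reads with STAR (version 2.5.4a in the submitters' processing notes) to 129S1 and Cast/Ei pseudogenomes of GRCm38, kept unique alignments, counted alleles at SNPs with samtools and summed these counts over merged exons, and no normalization was applied. Reads covering more than 1 SNP enter more than once. The deposited tables of AI fractions were not used.

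AI, Wilson intervals at 95% on corrected counts and QCC were computed in Python 3.11.15 (scipy 1.17.1). The proportional tests were two-sided, without continuity correction, on counts pooled over the libraries of a group and divided by the square of QCC, for genes with at least 10 counts in each library, with Bonferroni correction at 0.05 over all genes of the table. Totals were tested with edgeR 4.0.16 (quasi-likelihood, TMM, filterByExpr) in R 4.3.3 with Benjamini-Hochberg adjustment, and SEs were derived from the F statistic. The alternatives tried are listed with their effect at the end, DESeq2 1.42.0 among them. Background shares are over genes on the same autosomes with at least 100 pooled counts. Intervals cover counting error only, apart from QCC.

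The second run of the Abl.2 libraries was used as an alternative, not as replicates. The genes named were the 12 one-allele genes with most counts per clone, the 10 largest called clone differences, the 5 strongest kidney calls, the 3 deepest without a call, the 3 largest changes of total in each direction, members of known function and the extremes of clusters. Others were named after their values were seen. Members and lists were chosen with earlier results of these data known. Motifs were searched in coding sequences translated from GRCm38, as C, 2 residues, C, 12 residues, H, 3 to 5 residues, H for C2H2 and C, 8 residues, C, 5 residues, C, 3 residues, H for CCCH.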

Additional observations from a re-analysis of the deposited data

Results flagged for a closer look

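In kidney, 67 named Zfp genes with at least 10 counts in each of the 6 libraries were checked for a library far from the others, and 2 had one, fewer than the roughly 1 in 20 that chance gives. One library of Zfp91 had an AI of 0.5 where the others reached at most 0.372, and one of Zfp281 had 0.182 where the next was 0.458.

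Another 17 named Zfp genes differed in AI between the clones by the two-sample proportional test after QCC correction. As the difference of Abl.2 minus Abl.1, the values were 1 for Zfp27, 1 for Zfp939, 0.969 for Zfp36 and 0.789 for Zfp619. They were 0.541 for Zfp7, 0.534 for Zfp623, 0.496 for Zfp719, 0.486 for Zfp960, 0.467 for Zfp251, 0.371 for Zfp202 and 0.364 for Zfp456. Smaller differences were 0.175 for Zfp157 and 0.122 for Zfp775. In the other direction they were -0.903 for Zfp941, -0.521 for Zfp606, -0.482 for Zfp599 and -0.436 for Zfp605. Zfp719, Zfp619 and Zfp939 stood in a region of chromosome 7 where other genes had a median AI of 0.167 to 0.194 in Abl.1, and Zfp202 in one at 0.654 in Abl.1 and 0.646 in Abl.2. The part of these regions in the differences was not tested.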

How the results depend on the processing

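Without the QCC correction the Zfp genes called were 93 for bias in Abl.1 (29 with it), 105 in Abl.2 (44) and 37 in kidney (18), 67 between the clones (18), 37 and 46 for Abl.1 and Abl.2 against kidney (12 and 23), and 22 and 25 on 1 allele (13 and 16). In the same order up to kidney, Benjamini-Hochberg adjustment gave 69, 103, 52, 52, 37 and 52, and edgeR with terms for library and allele gave 61, 60, 52, 38, 33 and 45. Without chromosomes 5, 7 and 18 the counts were 12, 27, 10, 8, 4 and 12 for these, 6 and 8 on 1 allele and 55 for total level, with fewer genes tested. Bias in kidney was called for 6 genes with NEBNext and 5 at 100 pg, where Zfp945 (-0.043 from 0.5) and Zfp661 (-0.020) changed side with NEBNext, and the cause was not tested. Leaving out 1 library gave 15 to 16 calls of bias in Abl.1, 27 to 33 in Abl.2, 13 to 15 between the clones, 7 to 11 for Abl.1 against kidney, 18 for Abl.2 against kidney, 7 to 8 and 14 to 15 on 1 allele, and 46 to 144 for total level, where the lone library of a clone was assumed to vary like the other clone. Between the clones DESeq2 gave 33 calls.

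Replicate numbers were not shown to pair the libraries (correlation of deviations -0.022 for AI and 0.174 for total level over 8455 genes, with 2 pairs). With a replicate block, edgeR called 33 Zfp genes for AI between the clones (38 without it) and 93 for total level (89). Other limits on counts and AI, thinning and the second run left the counts within 1.5 times. Over single named genes 759 values were recomputed, of which 685 kept direction and call, 72 kept the direction but lost the call, and 2 changed sign. In Abl.1 fewer than 133 counts cannot show use of 1 allele.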

Other observations

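The libraries of a clone differed widely for a few Zfp genes that were not on 1 allele. Zfp661 had an AI of 0.176 and 0.681 in Abl.1, on 182 and 160 counts, and 0.6 and 0.752 in Abl.2. Zfp658 had 0.167 and 0.645 in Abl.2, on 108 and 152 counts, and 0.251 and 0.269 in Abl.1. Between the sequencing runs of the Abl.2 libraries, which are the same libraries, the median absolute AI difference over 214 Zfp genes was 0.0230 and the largest 0.233, in Zfp273.

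Zfp934, on chromosome 13, leaned to the paternal column in both clones, with an AI of 0 in both Abl.1 libraries on 43 and 70 counts and 0.168 and 0.185 in Abl.2 on 196 and 238 counts. It was called biased in Abl.2 (proportional test, adjusted p = 6.11e-06) and not in Abl.1, where its 113 counts were below the number needed. In kidney its AI was 0.525 on 40 counts.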
